A study of Mus musculus with 11 samples.

Results

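The integrated stress response genes were examined in mouse gingival epithelium after Langerhans cells (LCs) had been depleted around weaning. These 9 genes are Atf4, Atf5, Ddit3, Ppp1r15a, Ddit4, Sesn2, Trib3, Asns and Chac1, and they were taken by their symbols from a table that lists 55414 genes, of which 19170 have values. All 9 had values, and each averaged 10 normalized counts or more. The mice were langerin-DTR mice, in which cells that make langerin also carry a receptor for diphtheria toxin (DT) and die when the toxin is given. All mice had this receptor, and the groups were set by the injection: 5 mice received PBS and 6 received DT, at 17 days of age and again at 24 and at 31 days. No mice without the receptor were sequenced, so effects of the toxin itself and of the loss of LCs cannot be told apart. In the sample titles, the numbers after the letter S are all lower for PBS than for DT. Group and this order cannot be told apart either. Epithelium was collected at 8 weeks of age, and its RNA was sequenced as stranded, poly(A)-selected libraries according to the reporting summary of the study. The labels do not say whether a sample came from a single animal, and each sample is called a mouse here.

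The integrated stress response couples the start of translation to stress. When a stress-sensing kinase phosphorylates the initiation factor eIF2, protein synthesis slows as a whole, while the mRNA of the transcription factor ATF4 is translated more, and ATF4 then switches on genes for amino acid supply, redox balance and, under lasting stress, cell death. In epithelia the pathway answers shortage of amino acids, unfolded protein in the endoplasmic reticulum, viral RNA and oxidative stress. ATF4 is set largely by translation, so the level of its mRNA is not a measure of its protein, and neither protein nor eIF2 phosphorylation was measured here.

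The libraries held between 17509328 and 24325513 reads per mouse, recovered from the deposited values, and depth did not separate the groups (exact permutation test, two-sided, p = 0.496). All 13 keratinocyte markers had values and summed to between 2158753 and 2423299 normalized counts per mouse. Cd207, which encodes langerin, was at 15.8, 18.5, 32.2, 10.0 and 43.0 normalized counts in the mice PBS 1 to 5, and ranged from 15.8 to 21.6 in DT-treated mice with a median of 18.3. The groups overlapped, and the limma adjusted p was 0.853, so a lower level of langerin mRNA after DT was not detectable at the time of collection. The study reports that LCs were absent during the period of injections and had gradually returned to normal frequencies by the age at collection. The Cd207 level at collection is thus no measure of the earlier depletion. The 7 LC markers together summed to 1789 to 4711 normalized counts after PBS and 1263 to 2696 after DT (exact permutation p = 0.147). This sum was mostly Cd74 and the MHC class II genes H2-Ab1, H2-Aa and H2-Eb1. After PBS they averaged 1361, 557, 474 and 449, beside 23.9 for Cd207. PBS 3 and PBS 5 lay away from the rest of their group: on the first principal component of the 500 most variable genes, with 36% of their variance, they scored 17.2 and 20.9, the other 3 PBS-treated mice between -13.0 and -11.9, and the DT-treated mice between -9.1 and 10.5.

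Members of the response were compared first with each other. Per kilobase of the principal transcript, and averaged over the 11 mice, Atf4 was highest with 1562 normalized counts, followed by Atf5 with 594, Asns with 461, Ddit4 with 420, Ppp1r15a with 381, Chac1 with 199, Sesn2 with 171, Trib3 with 112 and Ddit3 with 107. Dividing by length takes reads to cover whole transcripts, which was not tested. Of the neighbours in this order, Atf4 and Atf5 had ranges over mice that did not overlap, and the ranges of all other neighbours overlapped. Mouse by mouse, 4 of the 8 neighbouring pairs kept their order in all 11 mice, namely Atf4 over Atf5, Atf5 over Asns, Ppp1r15a over Chac1 and Sesn2 over Trib3.

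No member passed the threshold used for all genes. By limma with Benjamini-Hochberg adjustment over all genes tested, 0 of 9 members differed between DT and PBS at an adjusted p under 0.1, beside 107 of 19170 genes (0.558%; 0.313% higher and 0.245% lower after DT). At an unadjusted p under 0.05 there were 4 of 9, beside 11.5% of all genes tested. Of these, Ppp1r15a and Atf4 had higher values after DT (2 of 9, beside 5.31% of all genes), and Ddit4 and Ddit3 had lower values (2 of 9, beside 6.19%). The median log2 fold change of the 9 members was 0.01, with 5 positive and 4 negative values, and that of all genes tested was -0.01. DT-treated and PBS-treated mice overlapped in all 9, and 1.65% of all genes tested had groups that did not overlap. A tissue with fewer cells of a type and a tissue with less of the RNA in each cell cannot be told apart in these bulk samples.

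**Figure D1:**
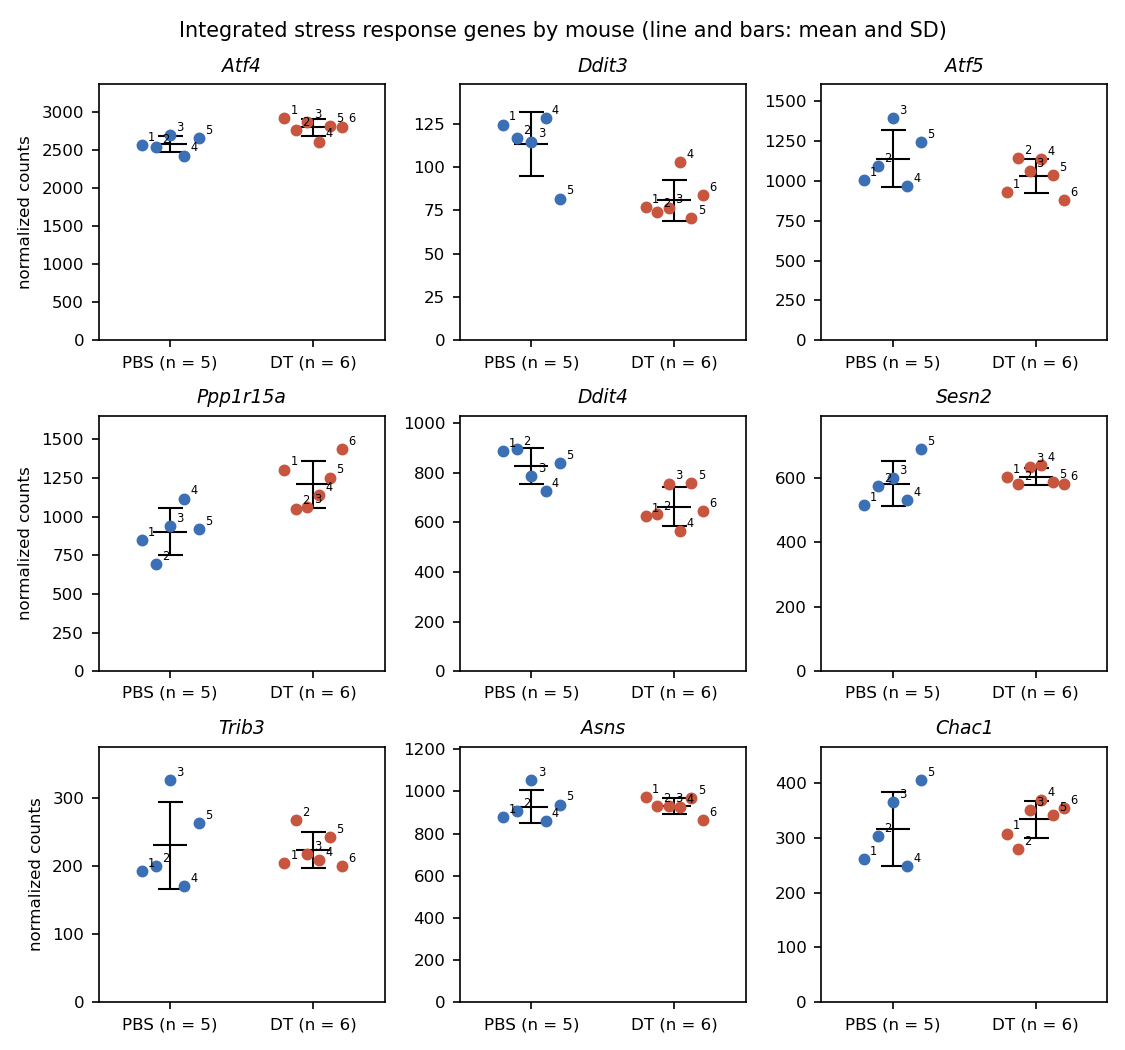
Normalized counts (vertical axes, from 0) of the 9 integrated stress response genes in each PBS-treated (blue, n = 5) and DT-treated mouse (red, n = 6). Points are numbered by replicate, lines and bars give the mean and SD, and the groups overlap in every panel.

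**Figure D2:**
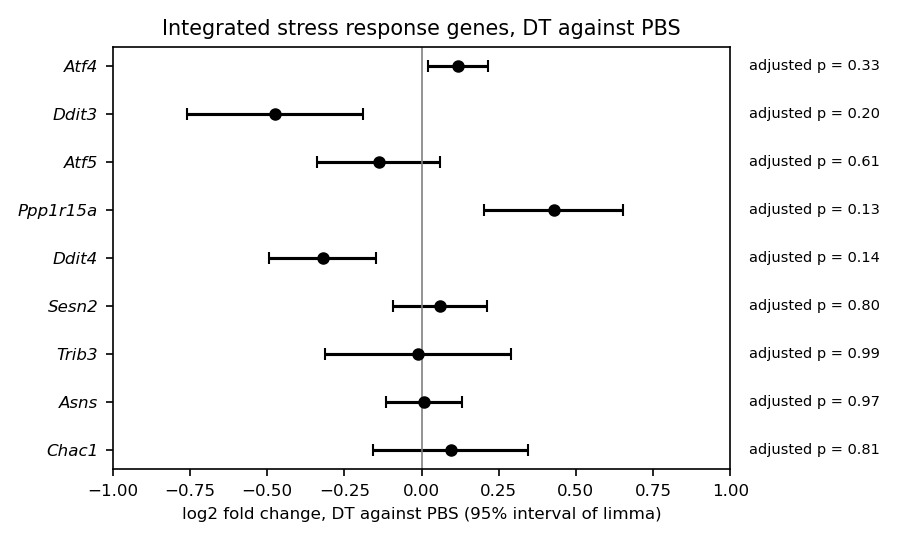
Log2 fold change of each gene after DT against PBS (horizontal axis) with the 95% interval of limma, and its adjusted p at the right. The intervals of Ppp1r15a and Atf4 lie above 0 and those of Ddit3 and Ddit4 below it, while the smallest adjusted p, that of Ppp1r15a, is 0.127.

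The transcription factors of the response came next. Atf4 (ENSMUSG00000042406) encodes the factor at the centre of the pathway. It was at 2561, 2538, 2696, 2424 and 2658 normalized counts in the mice PBS 1 to 5, and in DT-treated mice the lowest, median and highest values were 2608, 2807 and 2919. All but DT 4 of the DT-treated mice exceeded every PBS-treated mouse. The log2 fold change was 0.12 (SE 0.046, 95% interval 0.02 to 0.22), with an unadjusted p of 0.0205 and an adjusted p of 0.326 by limma, and the exact permutation test gave p = 0.0108, where all 462 possible splits allow no p below 0.00216. The SD of Atf4 within groups lay at percentile 4.0 of the 13477 genes that averaged 10 normalized counts or more. These genes were not matched to it in expression level.

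Ddit3 (ENSMUSG00000025408) encodes CHOP, a factor induced by ATF4 that promotes cell death under lasting stress. Its values were 125, 117, 115, 128 and 81.8 normalized counts in the mice PBS 1 to 5, and 70.6, 76.7 and 103 as the lowest, median and highest after DT. PBS 5 lay within the range of the DT-treated mice and DT 4 came closest to the other 4 PBS-treated mice, all of which were higher than any DT-treated mouse. Its log2 fold change was -0.47 (SE 0.134, 95% interval -0.76 to -0.19), with an unadjusted p of 0.00285 and an adjusted p of 0.196 by limma and an exact permutation p of 0.0173. Without PBS 5 it was -0.59 with an adjusted p of 0.0449. Ddit3 rested on the fewest reads of the members, 67 to 141 per mouse. The table lists a second Ddit3 identifier on the same strand without a value, which shares 105 of the 890 exonic bases (11.8%) of the principal transcript, and the gene overlaps the methionyl-tRNA synthetase gene Mars on the opposite strand, at a mean of 967.8 normalized counts. The kit keeps the strand, but the strand setting of the counting is not given in the sources used here, so the share of Mars reads in the Ddit3 value was not tested.

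Atf5 (ENSMUSG00000038539), a relative of Atf4 that is also controlled by translation, was at 1006, 1090.3, 1393, 964 and 1239 normalized counts in the mice PBS 1 to 5 and at 878, 1048 and 1139.7 as the lowest, median and highest after DT. PBS 3 and PBS 5 were the highest of all mice. This gave a log2 fold change of -0.14 (SE 0.094, 95% interval -0.34 to 0.06), with an adjusted p of 0.607 by limma and an exact permutation p of 0.253. Atf5 overlaps Nup62, with a mean of 782 normalized counts, and Il4i1 on the opposite strand.

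Ppp1r15a (ENSMUSG00000040435) encodes GADD34, which brings protein phosphatase 1 to eIF2 and so ends the response. Its window of 250 bases before to 50 after the start site was the only one among the members with TGACGTCA, the cyclic AMP response element that ATF and CREB factors bind (1.79% of 32851 mouse promoters in RefSeq hold it on either strand). The last 80 bases before the start, at chr7:45526269-45526348 on the minus strand of GRCm38.p6, are shown with this element in capitals.
Ppp1r15a: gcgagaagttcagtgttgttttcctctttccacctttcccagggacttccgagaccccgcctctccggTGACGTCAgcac

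Ppp1r15a was at 846, 693, 941, 1117 and 920.2 normalized counts in the mice PBS 1 to 5, and at 1053, 1198 and 1439 as the lowest, median and highest after DT. PBS 4 was the highest of the PBS-treated mice and reached into the DT range, whereas 4 of 6 DT-treated mice exceeded all PBS-treated mice and all 6 exceeded the PBS mean. The group means were 904 ± 154 (SD, n = 5) and 1209 ± 151 (SD, n = 6). The log2 fold change of 0.43 (SE 0.106, 95% interval 0.20 to 0.65) was the largest positive one among the members, with an unadjusted p of 0.000968 and an adjusted p of 0.127 by limma and an exact permutation p of 0.00866. A single mouse moved this gene over the threshold: without PBS 4 the log2 fold change was 0.51 with an adjusted p of 0.0345, and without PBS 5 it was 0.44 with an adjusted p of 0.0985.

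Immediate early genes, which cells switch on within minutes of a stimulus, moved with Ppp1r15a. Their list, like the others, was written with earlier results of these data known. Of 22 with values, 13 rose after DT and 0 fell at a limma adjusted p under 0.1, beside 0.313% and 0.245% of all genes tested. Because the list was written with earlier results known, no p-value is given for it as a whole. The mean log2 value of these 22 genes was taken relative to each gene's mean over all mice. It was -0.51, -0.72, -0.58, 0.23 and -1.08 in PBS 1 to PBS 5 and 0.18 to 0.86 in the DT-treated mice. PBS 4, the PBS-treated mouse with the most Ppp1r15a, was also the one whose immediate early genes lay within the DT range. Among the genes of this list, Ier2 rose by 0.75, Btg2 by 0.76, Junb by 0.68 and Dusp1 by 1.02 on the log2 scale, with limma adjusted p of 0.00477 for Ier2 and 0.0083 for Dusp1. The share of normalized counts on mitochondrially encoded genes also differed, with 1.63% to 4.15% after PBS against 1.34% to 2.24% after DT (exact permutation p = 0.0173). As a description over the 11 mice, Pearson's r with the immediate early score was 0.87 for Ppp1r15a, -0.74 for Ddit4 and -0.68 for Atf5 (0.69, -0.31 and -0.69 with the group means removed), and r with the log2 mitochondrial share was -0.81 for Atf4 and -0.74 for Ppp1r15a (-0.61 and -0.47 with the group means removed). The part of the immediate early genes and of the mitochondrial share in the values of the members was not tested.

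**Figure D3:**
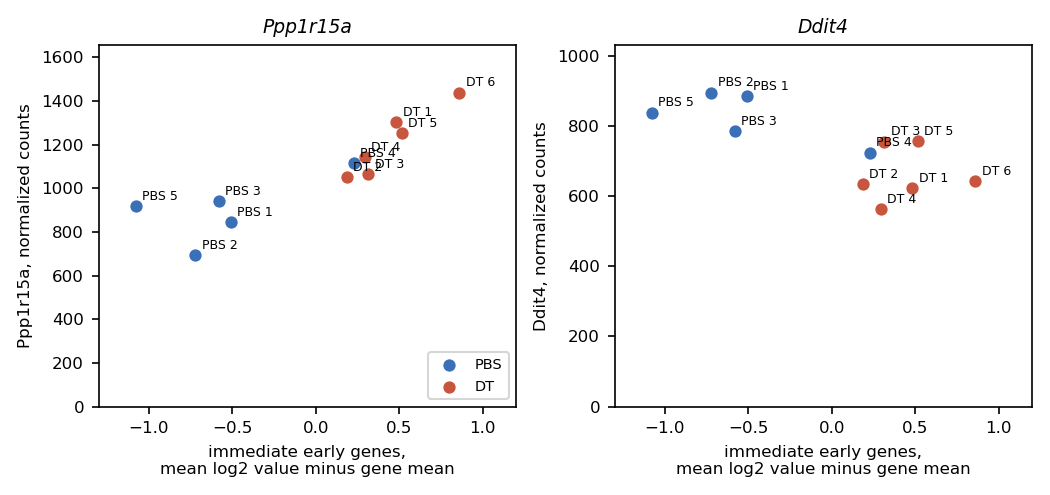
Normalized counts (vertical axes) of Ppp1r15a and Ddit4 in each mouse against the mean log2 value of 22 immediate early genes, relative to the gene means (horizontal axes), with PBS-treated mice in blue and DT-treated mice in red. PBS 4, at 0.23 on the horizontal axis, sits among the DT-treated mice in both panels.

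Both brakes on the growth kinase complex mTORC1 were read next. Ddit4 (ENSMUSG00000020108) encodes REDD1, an mTORC1 inhibitor that glucocorticoids and hypoxia also induce. It was at 885, 895, 785, 724 and 838 normalized counts in the mice PBS 1 to 5 and at 564, 638 and 756 as the lowest, median and highest after DT. PBS 4 was the lowest PBS-treated mouse, and 4 of 6 DT-treated mice lay below all PBS-treated mice. The means were 826 ± 71.5 (SD, n = 5) and 663 ± 77.4 (SD, n = 6), the log2 fold change was -0.32 (SE 0.081, 95% interval -0.49 to -0.15), and the limma p was 0.00122 unadjusted and 0.145 adjusted, with an exact permutation p of 0.0152. Without PBS 4 the log2 fold change was -0.37 with an adjusted p of 0.0732. Of 11 glucocorticoid-responsive genes 1 rose, Zbtb16, from 12.5 ± 12.4 (SD, n = 5) to 79.5 ± 34.5 normalized counts (SD, n = 6; limma adjusted p = 0.00897). At an unadjusted limma p under 0.05, 2 of these 11 had higher and 0 lower values, beside 5.31% and 6.19% of all genes. Of 12 hypoxia-inducible factor targets, 1 fell, Ankrd37, by 0.75 on the log2 scale (limma adjusted p = 0.0782). This call was lost without PBS 1, PBS 2, DT 1, DT 3, DT 4, DT 5 or DT 6, with adjusted p between 0.105 and 0.197. At an unadjusted limma p under 0.05, 1 of these 12 targets had higher and 4 had lower values.

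Sesn2 (ENSMUSG00000028893) encodes a sestrin that senses leucine and restrains mTORC1. Its values were 516, 574, 601, 532 and 690.4 normalized counts in the mice PBS 1 to 5, and 580.2, 595 and 641 as the lowest, median and highest after DT. PBS 5 exceeded every other mouse, and the DT-treated mice lay inside the PBS range. This gave a log2 fold change of 0.06 (SE 0.071, 95% interval -0.09 to 0.21), with an adjusted p of 0.805 by limma and an exact permutation p of 0.418. Of 18 mTORC1 partners 0 passed the threshold, and 2 had higher and 1 lower values at an unadjusted p under 0.05. The sestrin paralog Sesn1 went from 1952 ± 336 (SD, n = 5) to 2344 ± 145 (SD, n = 6), with a limma adjusted p of 0.252, and the Ddit4 paralog Ddit4l from 272 ± 20.9 (SD, n = 5) to 317 ± 35.5 (SD, n = 6), with a limma adjusted p of 0.333.

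The remaining members carry the letters TGATGNAA on either strand of the promoter window, which is the composite element (CARE) where ATF4 binds together with a C/EBP factor. Asns, Chac1 and Trib3 hold it, as does Atf3, a stress factor described with the pathway, whereas Atf4, Atf5, Ddit3, Ddit4, Ppp1r15a and Sesn2 show no match to these letters in this window. Of all 32851 promoters 3.97% match. Ddit3 alone of the members holds TGANTCA, the AP-1 element, which 7.81% of promoters hold, and none holds the endoplasmic reticulum stress element ERSE (0.119% of promoters). Binding of ATF4 at these matches was not tested. The stretches are shown because they carry these letters, 5′ to 3′ on the gene's strand with the element in capitals, from RefSeq on GRCm38.p6. In Chac1, Trib3 and Atf3 the element reads on the opposite strand. They lie at chr6:7693210-7693289 (minus strand) for Asns, chr2:119351013-119351092 (plus strand) for Chac1, chr2:152344028-152344057 (minus strand) for Trib3 and chr1:191183400-191183479 (minus strand) for Atf3, and the Trib3 stretch lies just after the start site while the others lie before it.
Asns: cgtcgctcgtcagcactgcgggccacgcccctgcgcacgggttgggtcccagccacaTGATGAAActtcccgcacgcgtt
Chac1: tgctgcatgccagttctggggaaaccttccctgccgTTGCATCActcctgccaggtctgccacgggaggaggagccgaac
Trib3: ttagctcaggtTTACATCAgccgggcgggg
Atf3: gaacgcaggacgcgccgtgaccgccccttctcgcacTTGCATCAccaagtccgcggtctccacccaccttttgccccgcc

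The 3 members with a match to these letters in this window were, with Sesn2, the 4 with the smallest log2 fold changes in size. Sesn2 has no match, and Atf3, which has 1, had a log2 fold change of 2.68. A link between the letters and the changes was not tested. Asns (ENSMUSG00000029752), which makes asparagine, was at 878, 908, 1054, 858 and 937 normalized counts in the mice PBS 1 to 5 and at 863, 930.1 and 971 as the lowest, median and highest after DT. The DT-treated mice lay inside the PBS range. The log2 fold change was 0.01 (SE 0.058, 95% interval -0.11 to 0.13), with an adjusted p of 0.973 by limma and an exact permutation p of 0.894, and among the members only Atf4 varied less between mice of a group.

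Chac1 (ENSMUSG00000027313) encodes an enzyme that breaks down glutathione. It was at 261, 302, 364, 248 and 405 normalized counts in the mice PBS 1 to 5 and at 279, 345 and 368 as the lowest, median and highest after DT. PBS 5 was the highest and PBS 4 the lowest of all mice, so the PBS group enclosed the DT group. Its log2 fold change was 0.09 (SE 0.119, 95% interval -0.16 to 0.35), with an adjusted p of 0.814 by limma and an exact permutation p of 0.504.

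Trib3 (ENSMUSG00000032715), a pseudokinase that binds ATF4 and dampens its activity, was at 192, 200.2, 327, 171 and 263 normalized counts in the mice PBS 1 to 5 and at 200.4, 213 and 268 as the lowest, median and highest after DT. PBS 3 was the highest and PBS 4 the lowest of all mice, and the spread within groups was the widest of the members, at percentile 78.6 on the same scale. The log2 fold change was -0.01 (SE 0.142, 95% interval -0.31 to 0.29), with an adjusted p of 0.986 by limma and an exact permutation p of 0.948. The paralog Trib1, from 708 ± 31.5 (SD, n = 5) to 855 ± 50.4 (SD, n = 6), rose by 0.27 with a limma adjusted p of 0.0549, a call that was lost without PBS 1, PBS 2, DT 3, DT 4, DT 5 or DT 6, with adjusted p between 0.104 and 0.139.

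The members were then compared mouse by mouse. PBS 3 and PBS 5 were the 2 highest PBS-treated mice for 6 of 9 members, namely Atf4, Atf5, Trib3, Asns, Chac1 and Sesn2, while PBS 4 was the lowest PBS-treated mouse for 5 of them, Sesn2 being the exception. Ddit3 and Ppp1r15a had their highest PBS value in PBS 4. With the group means removed, Pearson's r over the 11 mice was 0.87 for Atf5 and Trib3, 0.86 for Chac1 and Sesn2, 0.82 for Trib3 and Asns, and -0.67 for Atf4 and Ddit3, given as a description over mice whose values share libraries. Of the 36 pairs of members 10 (27.8%) had an r over 0.5 and 3 (8.3%) an r under -0.5, with a median r of 0.085. Over all pairs of genes that averaged 10 normalized counts or more, 12.3% had an r over 0.5 and 12.2% an r under -0.5. Without PBS 3 and PBS 5 the count of member pairs over 0.5 was 3.

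Without PBS 3 and PBS 5, a choice made after seeing the data, 5 of 9 members passed the threshold, and 1967 of 19170 genes did. Ppp1r15a was then at 0.47 (adjusted p = 0.0393), Atf4 at 0.16 (adjusted p = 0.0694) and Chac1 at 0.30 (adjusted p = 0.0798) on the log2 scale, Ddit3 at -0.61 (adjusted p = 0.0172) and Ddit4 at -0.33 (adjusted p = 0.052), all by limma. Trib3 was then at 0.25 (adjusted p = 0.175). The calls of these 5 members thus differed with the PBS-treated mice compared. All 5 kept their direction in all 23 alternative fits, which reuse the same mice, and so did Sesn2, which was not called.

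**Figure D4:**
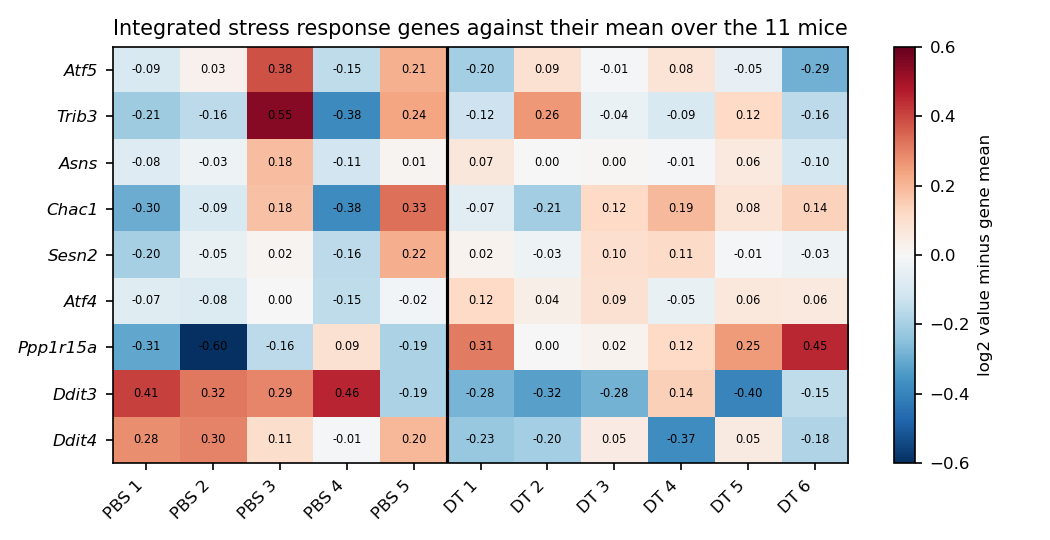
Log2 value of each integrated stress response gene (rows) in each mouse (columns) minus the gene's mean over the 11 mice, in red above and blue below the mean, with the number in each cell. Atf5, Trib3, Asns, Chac1 and Sesn2 are above their means in PBS 3 and PBS 5, and Ddit3 and Ddit4 are mostly above in PBS-treated and below in DT-treated mice.

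The pathway around the members was then read by lists of its known genes, written with earlier results of these data known. Upstream, 0 of 8 eIF2 kinases and sensors passed the threshold, with 0 higher and 2 lower at an unadjusted p under 0.05 and a median log2 fold change of -0.01. These were the kinase gene Eif2ak2, which encodes the sensor of double-stranded RNA and went from 433 ± 54.9 (SD, n = 5) to 362 ± 42.0 (SD, n = 6), with an adjusted p of 0.295 by limma, and Impact, an inhibitor of the amino acid sensor GCN2, from 336 ± 58.4 (SD, n = 5) to 275 ± 17.9 (SD, n = 6), with an adjusted p of 0.301. Without PBS 5 Impact passed the threshold, at -0.37 with an adjusted p of 0.0622. Of 11 genes for eIF2, its exchange factor eIF2B and the constitutive phosphatase, 0 passed, 4 had higher values at an unadjusted p under 0.05, and all 11 log2 fold changes were positive with a median of 0.10, beside 47.3% positive over all genes tested. Eif2b5, the catalytic subunit of eIF2B, had no overlap between groups, with 1966 to 2306 normalized counts after PBS and 2343 to 2427 after DT (limma adjusted p = 0.155, and 0.0494 without PBS 5). Ppp1r15b, the constitutive partner of phosphatase 1, went from 2118 ± 85.9 (SD, n = 5) to 2347 ± 72.4 (SD, n = 6), with a limma adjusted p of 0.215.

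Among 11 partners of ATF4 and other stress factors, 1 rose and 0 fell. This was Atf3, which counts among the immediate early genes as well and holds the composite element shown above. Atf3 was at 170, 154, 131, 731 and 107 normalized counts in the mice PBS 1 to 5 and ranged from 751 to 2680 after DT, with PBS 4 closest to the DT-treated mice. Its log2 fold change was 2.68 (SE 0.410, 95% interval 1.81 to 3.55; limma adjusted p = 0.00926).

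Downstream, 1 of 13 enzymes of amino acid synthesis rose and 0 fell. Gpt2, the mitochondrial alanine aminotransferase, went from 2287 ± 137 (SD, n = 5) to 2727 ± 152 (SD, n = 6), a log2 fold change of 0.25 with a limma adjusted p of 0.0776, which was lost without PBS 1, PBS 2, DT 3, DT 4, DT 5 or DT 6, with adjusted p between 0.101 and 0.204. Of 11 amino acid transporters 0 passed, with 2 higher and 1 lower at an unadjusted p under 0.05. The leucine transporter gene Slc7a5 went from 2629 ± 569 (SD, n = 5) to 3421 ± 286 (SD, n = 6), with a limma adjusted p of 0.192, and passed only without PBS 4, with 0.0193. The glycine transporter gene Slc6a9 went from 873 ± 53.4 (SD, n = 5) to 1016 ± 121 (SD, n = 6), with a limma adjusted p of 0.295. Of 13 genes in the list of aminoacyl-tRNA synthetases, which counts the tRNA exporter Xpot and does not hold every synthetase, 0 passed, and 0 did so at an unadjusted p under 0.05, with a median log2 fold change of 0.04. Its smallest p-values were those of Yars and Aars, with log2 fold changes of 0.09 (adjusted p = 0.523) and -0.08 (adjusted p = 0.546) by limma.

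Of 14 secreted and effector genes of the response 1 rose and 0 fell. Gadd45a, a growth arrest gene induced by DNA damage and by ATF4, went from 313 ± 26.0 (SD, n = 5) to 468 ± 34.2 normalized counts (SD, n = 6) with no overlap, a log2 fold change of 0.58 (SE 0.071; limma adjusted p = 0.00477) that passed whichever of the 11 mice was left out. Of 23 chaperones and other genes of the XBP1 and ATF6 arms of the unfolded protein response 0 passed, 2 had higher values at an unadjusted p under 0.05, and 18 log2 fold changes were positive with a median of 0.07. The chaperone genes Dnajb9 and Hspa5 had log2 fold changes of 0.43 (adjusted p = 0.235) and 0.30 (adjusted p = 0.418) by limma.

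**Figure D5:**
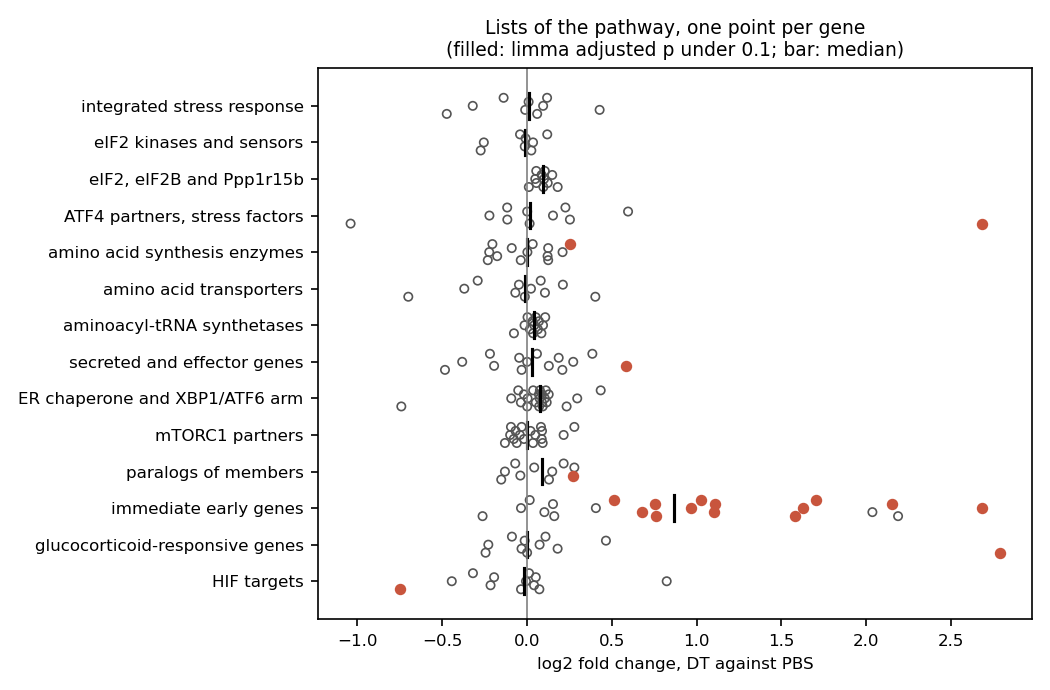
Log2 fold change after DT against PBS (horizontal axis) of each gene in the 9 integrated stress response genes and 13 lists around them, with a bar at the median of each list and filled points for genes with a limma adjusted p under 0.1. The members centre on 0.01 with no filled point, whereas 13 of 22 immediate early genes are filled.

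Genes whose log2 values followed each member most closely over the 11 mice were sought among the 13468 other genes that averaged 10 normalized counts or more, by Pearson's r as a description. Ppp1r15a was most like Nt5c3 (r = 0.96) and Areg (r = 0.96). Areg, which encodes the epidermal growth factor receptor ligand amphiregulin, rose from 62.2 ± 17.4 (SD, n = 5) to 127 ± 39.6 (SD, n = 6) with a limma adjusted p of 0.0784, a call lost without PBS 1, PBS 2, DT 1, DT 4, DT 5 or DT 6, with adjusted p between 0.143 and 0.211. Ddit3 was most like Fastk (r = 0.93) and Usp42 (r = 0.91), Ddit4 like Mid2 (r = 0.92) and H2bc21 (r = 0.92), and Atf4 like Timm29 (r = 0.93) and Ppp1cc (r = 0.92). With the group means removed, r was 0.83 and 0.76 for these genes of Ddit3, 0.84 and 0.80 for Ddit4, and 0.83 and 0.86 for Atf4. For Ppp1r15a it was then 0.94 with Nt5c3 and 0.91 with Areg. For the members that were high in PBS 3 or PBS 5 the nearest genes were Crabp1 (r = 0.96) and Ube2m (r = 0.96) for Atf5, Trnp1 (r = 0.94) and Atp5g2 (r = 0.94) for Trib3, Snx8 (r = 0.94) and H4c9 (r = 0.92) for Asns, Anxa2 (r = 0.96) and Keap1 (r = 0.95) for Chac1, and Lad1 (r = 0.95) and Nenf (r = 0.94) for Sesn2. No member was among the genes searched. These last neighbours peaked in the same mouse as their member, which a choice by r over these mice favours. Crabp1, Ube2m, Trnp1, Atp5g2, Snx8 and H4c9 were highest in PBS 3, as were Atf5, Trib3 and Asns. Anxa2, Keap1, Lad1 and Nenf were highest in PBS 5, as were Chac1 and Sesn2. These shared peaks thus follow from how the neighbours were chosen and are no separate result.

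Markers of other cells were read as summed normalized counts per mouse, and 0 genes of the 13 marker lists passed the threshold by limma. The fibroblast list was the largest beside the LC list and the keratinocytes, with 1252 to 1450 after PBS and 1109 to 1594 after DT (exact permutation p = 0.699), which is more than Ddit3, Trib3 or Chac1. This sum was mostly Dcn, with means of 1174 after PBS and 1259 after DT. Col1a1, Col1a2 and Col3a1 averaged 69.5, 49.2 and 33.5 after PBS. Dcn and Pdgfra had positive log2 fold changes, and Col1a1, Col1a2, Col3a1 and Lum negative ones. The macrophage list summed to 259 to 482 after PBS and 264 to 368 after DT. The neutrophil list had 1 of 6 genes with a value, at 0 to 3.44, and the T cell list summed to 10.0 to 55.3. At an unadjusted p under 0.05, 1 macrophage, 1 fibroblast and 1 LC marker had lower values and 1 keratinocyte and 1 Schwann cell marker higher values after DT. The part of these cells in the values of the members was not tested.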

How the data were processed

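Samples of mouse gingival epithelium, 5 after PBS and 6 after DT, were sequenced (poly(A) selection, stranded kit). This kit is named in the reporting summary of the study, whereas its methods trimmed reads by the guide of another kit, QuantSeq. The deposited values are normalized counts per gene: per the labels, the authors trimmed reads with cutadapt 2.10, aligned them with TopHat2 2.1.1, counted them with HTSeq 2.01 and scaled them with DESeq2 1.36.0. The methods of the study give other versions of these tools except the aligner, and GRCm38 with an Ensembl release older than some gene names in the table, where the labels name GRCm39. Genes listed without a value (36244) were left out. No column of sample values was left out.

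Log2(normalized count + 1) of 19170 genes was tested with limma 3.58.1 in R 4.3.3, with an intensity trend, no covariate and a threshold of 0.1 after Benjamini-Hochberg adjustment, in a procedure tested on simulated data. For single values, exact permutation tests (two-sided) were used. p-values measure the spread between these samples. Values were whole multiples of 1 read (tolerance 0.02), which gave the depth. Count tests with edgeR and DESeq2, planned as alternatives, were not run: a check of the recovered reads against the table did not accept PBS 3 and DT 3, where 1 read is worth close to 1 normalized count. Lengths came from GENCODE mouse release 21 (99.7% of genes matched), and promoters from RefSeq (GRCm38.p6), where all 9 members matched by symbol. Motifs were searched on both strands. The members and the lists were chosen with earlier results of these data known. Genes named are the members, in each pathway list the called genes (at most 4 by p) or otherwise the 2 with the smallest p, the 2 genes most like each member, and Cd207. Mice with the same replicate number were not treated as pairs, since no pairing is described in the sources used here. Correlations of same-numbered deviations ran from -0.233 to 0.324, and a shared litter or cage was not tested.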

Additional observations from a re-analysis of the deposited data

How the results depend on the processing

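Ppp1r15a, Atf4, Ddit3, Ddit4, Chac1 and Sesn2 kept their direction in all 23 alternative fits by limma, which reuse the same mice. On the log2 scale the ranges were 0.34 to 0.51 for Ppp1r15a, 0.10 to 0.16 for Atf4, -0.61 to -0.40 for Ddit3 and -0.37 to -0.28 for Ddit4. The smallest and largest adjusted p were 0.0345 and 0.376 for Ppp1r15a, 0.0172 and 0.601 for Ddit3, 0.052 and 0.349 for Ddit4 and 0.0694 and 0.683 for Atf4. The exact permutation p of Ppp1r15a, Atf4, Ddit3 and Ddit4 stayed under 0.05 in all 11 fits without a mouse. The cause of the changes listed here was not tested.

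Against 0 of 9 members, array weights gave 3 (Ppp1r15a, Ddit3 and Ddit4), the length and GC correction 1 (Ppp1r15a, adjusted p = 0.0894), leaving out each mouse in turn 0 to 2, and leaving out PBS 3 and PBS 5 together, added after seeing the data, 5. Against 107 genes called, array weights gave 189, the fit with no trend and robust moderation 3, the length and GC correction 182 (138 higher and 44 lower, against 60 and 47), leaving out each mouse 27 (without DT 5) to 259 (without PBS 5), and leaving out PBS 3 and PBS 5 together 1967. Against 18 genes called over the pathway lists, no trend with robust moderation gave 1, leaving out each mouse 10 to 24, and leaving out PBS 3 and PBS 5 gave 36. No pairing by replicate number is described in the sources used here. With the replicate block on title numbers 35 genes and 11 pathway genes were called, and with the block on library numbers 0 genes and 0 pathway genes, beside 1404 of 19170 genes at an unadjusted p under 0.05. No member passed under either block.

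Some values that had not passed the threshold changed sign. Trib3 was at 0.0009 under quantile normalization, 0.0678 with array weights, 0.019 with the replicate block on title numbers, 0.0018 with the length and GC correction, 0.25 without PBS 3 and PBS 5, and between -0.11 and 0.12 without single mice. Asns was at -0.0042 under quantile normalization, -0.0023 with the block on library numbers, and between -0.018 and 0.0562 without single mice. Atf5 was at 0.0082 without PBS 3 and PBS 5. Of the genes most like a member, Anxa2 and Lad1 were at -0.0414 and -0.0412 under quantile normalization, and Trnp1 was at 0.14 without PBS 3 and PBS 5. Cd207, the langerin gene, was at -0.19 with all mice and at 0.33 without PBS 3 and PBS 5. Without single mice the ranges were -0.133 to 0.0418 for Trnp1, -0.0227 to 0.0791 for Atp5g2, -0.0302 to 0.1346 for Snx8, -0.057 to 0.2477 for H4c9, -0.0059 to 0.0622 for Anxa2, -0.006 to 0.0626 for Lad1 and -0.4445 to 0.0551 for Cd207.

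Among the members Ddit3 rested on the fewest reads, 67 in its lowest mouse.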
